A study of Mus musculus with 6 samples.

Results

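SP, NFY and KLF factors are DNA-binding proteins that occupy promoters, and SP1 and NF-YB are among the factors whose sites were examined in *Anp32e* null mouse embryonic fibroblasts (MEFs). The 10 genes described here, *Sp1*, *Sp2*, *Sp3*, *Sp4*, *Nfya*, *Nfyb*, *Nfyc*, *Klf4*, *Klf5* and *Klf6*, were taken by name from the 25043 genes of the RNA-Seq table, each with its RefSeq transcript of the highest mean. RNA was sequenced from 6 MEF libraries, 3 of wild type (WT) cells and 3 of *Anp32e*-/- cells, which lack the H2A.Z chaperone ANP32E. Both groups were primary fibroblasts grown from embryos in the same serum medium and used at low passage, and the sources used here do not say how many embryos the libraries came from.

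The table gives 1 mean normalized count per transcript, taken by the authors over all libraries of both genotypes. It holds no value per library, and its columns on the difference between the genotypes are the authors' own comparison and were not used. The levels below are therefore those of WT and *Anp32e*-/- MEFs together, with no spread between replicates, and no difference between the genotypes is reported for any of the 10 genes. *Anp32e* itself had a mean of 2190 normalized counts over the pooled libraries, which checks neither genotype. The size of a single read in the lowest means gave size factors of 0.909 to 1.13 for the 6 libraries. From these the number of reads behind each mean was estimated, taking the normalized count as equal in all libraries. The 95% intervals given below are Poisson intervals on that estimate and cover counting error only. Markers of the labelled cell type were present: all 14 fibroblast markers had a mean of at least 10. *Vim*, which encodes the filament protein vimentin, was the highest of them at 330695 normalized counts. The lowest were *Dcn* (144) and *Pdgfra* (628). Over all 25043 genes, 14246 had a mean of at least 10. Markers of other cells reached that level for 3 of 6 epithelial, 2 of 4 endothelial, 2 of 4 macrophage and 2 of 4 pluripotent genes. The highest of these were *Krt18* (1106), *Kdr* (2958), *Cd68* (257) and *Sox2* (114), while *Epcam* (5.12), *Pecam1* (4.47), *Ptprc* (3.09) and *Pou5f1* (2.43) were below 10, and their part in the levels below was not tested.

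The 3 families read different letters in DNA. SP and KLF proteins share a set of zinc fingers at the C terminus, with SP proteins binding the GC box (GGGCGG) and KLF proteins also binding related CACCC sites. NFY is a trimer: NFYB and NFYC pair through histone folds that resemble those of H2A and H2B, and NFYA joins the pair and reads the CCAAT box. Both kinds of site are common near the starts of broadly expressed genes.

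The factors' own promoters show such letters, and 6 of them are printed here for *Sp1* and *Nfyb*, whose products were just named, for *Sp3* and *Nfya*, and for *Klf4* and *Klf6*, the lowest and the highest of the KLF members. The sequences are from RefSeq on GRCm38.p6, run 5′ to 3′ on the strand of the gene and end at the base before the start of the gene's first window. Stretches of 30 to 240 bases are shown. The last 10 bases of the *Nfyb* stretch lie inside the gene interval given for it below, which reaches further upstream than the start used for the window. Capitals mark GC boxes and CCAAT boxes on either strand (GGGCGG or CCGCCC, and CCAAT or ATTGG).
Sp1, chr15:102406186-102406315, plus strand: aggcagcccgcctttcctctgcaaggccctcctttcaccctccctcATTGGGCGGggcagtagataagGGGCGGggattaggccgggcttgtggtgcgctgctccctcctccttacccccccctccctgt
Sp3, chr2:72980447-72980566, minus strand: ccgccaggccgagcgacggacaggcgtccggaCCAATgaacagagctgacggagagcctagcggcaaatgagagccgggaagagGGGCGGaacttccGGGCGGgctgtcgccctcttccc
Nfya, chr17:48409821-48409850, minus strand: cttcctaggGGGCGGggccaggctggccgg
Nfyb, chr10:82764142-82764271, minus strand: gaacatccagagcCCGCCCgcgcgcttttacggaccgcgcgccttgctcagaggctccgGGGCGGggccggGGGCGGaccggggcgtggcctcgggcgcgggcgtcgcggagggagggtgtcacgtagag
Klf4, chr4:55532476-55532705, minus strand: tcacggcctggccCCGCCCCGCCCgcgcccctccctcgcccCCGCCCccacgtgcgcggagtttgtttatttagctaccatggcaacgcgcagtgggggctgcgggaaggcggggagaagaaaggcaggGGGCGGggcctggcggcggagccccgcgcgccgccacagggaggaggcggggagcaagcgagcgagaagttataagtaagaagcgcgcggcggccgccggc
Klf6, chr13:5861249-5861488, plus strand: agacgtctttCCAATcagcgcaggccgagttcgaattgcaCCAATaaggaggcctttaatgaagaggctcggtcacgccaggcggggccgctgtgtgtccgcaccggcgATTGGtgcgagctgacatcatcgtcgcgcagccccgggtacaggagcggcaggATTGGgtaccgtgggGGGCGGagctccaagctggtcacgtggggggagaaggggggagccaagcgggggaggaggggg

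*Klf6*, a zinc finger factor found in most tissues, was the highest of the 10 by mean, per kilobase of transcript and per kilobase of coding sequence. It lies on chromosome 13 of GRCm38.p6 from 5861489 to 5870393 and had a mean of 13277 normalized counts (95% interval 13186 to 13369.6, about 80210 reads over the 6 libraries). Levels of different genes were compared per kilobase of transcript, since a longer transcript collects more reads. On that scale *Klf6*, with a transcript of 4225 bases, had 3143 normalized counts per kilobase, and 92.9% of the 17323 genes with reads and a transcript length were below it. The median of those genes was 131 per kilobase, so *Klf6* stood at 24.0 times the median gene.

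The other KLF members were much lower. *Klf5*, known for its roles in epithelia and smooth muscle, lies on chromosome 14 from 99298691 to 99313412 and had a mean of 892 normalized counts (95% interval 869 to 916), or 266 per kilobase. *Klf4*, one of the factors used to reprogram fibroblasts to pluripotent cells, lies on chromosome 4 from 55527137 to 55532475 and had a mean of 608 (95% interval 588 to 628), or 201 per kilobase. *Klf6* thus had 15.7 times the level of *Klf4* and 11.8 times that of *Klf5* per kilobase of transcript, and 33.2 and 20.9 times per kilobase of coding sequence. *Klf5* and *Klf4*, at percentiles 59.3 and 55.2 of all genes with reads, were close to the middle of the range of those genes. Among genes with a mean of at least 10 they were below the middle, at percentiles 44.6 and 39.1.

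The SP genes split into a higher pair and a lower pair. *Sp1*, the founding GC box factor, lies on chromosome 15 from 102406316 to 102436404 and had a mean of 5031 normalized counts (95% interval 4975 to 5088). *Sp3*, which binds the same sites and can activate or repress, lies on chromosome 2 from 72936430 to 72980446 and had a mean of 4025 (95% interval 3974 to 4076). *Sp4*, best known from neurons, lies on chromosome 12 from 118231686 to 118301440 and had a mean of 344 (95% interval 329.8 to 359.5). *Sp2*, which is known to be brought to many promoters through NFY, lies on chromosome 11 from 96953332 to 96982959 and had the lowest mean of the 10, at 321 (95% interval 307 to 336). Per kilobase the order within the pairs changed. *Sp3*, with a transcript of 4181 bases, had 963 and was above *Sp1*, with a transcript of 7754 bases and 649 per kilobase. Without the division by length, or with coding length in its place, *Sp3* was at 0.8 and 0.798 times the level of *Sp1*, so the order of these paralogs depends on the length used. *Sp2* (105) and *Sp4* (60.5) were below the median gene per kilobase, at percentiles 47.7 and 42.4 of genes with reads. Among genes with a mean of at least 10 these percentiles were 29.1 and 22.4.

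The NFY subunits had levels within a narrower range than the SP or KLF genes. *Nfya*, on chromosome 17 from 48386885 to 48409820, had a mean of 1555 normalized counts (95% interval 1524 to 1587). *Nfyb*, on chromosome 10 from 82748700 to 82764151, had a mean of 1792 (95% interval 1758 to 1826). *Nfyc*, on chromosome 4 from 120757435 to 120831579, had a mean of 2278 (95% interval 2240.2 to 2317). Per kilobase *Nfya* had 427, *Nfyb* 702 and *Nfyc* 1179, so the subunit that reads the CCAAT box was the lowest and the histone fold partners had 1.64 and 2.76 times its level. For *Nfyc* over *Nfya* the ratio was 1.47 without division by length and 1.52 with coding length. *Nfya* stayed the lowest of the subunits without division by length and with coding length, while *Nfyc* was above *Nfyb* without the division (1.27-fold) and below it with coding length (0.786-fold).

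**Figure D1:**
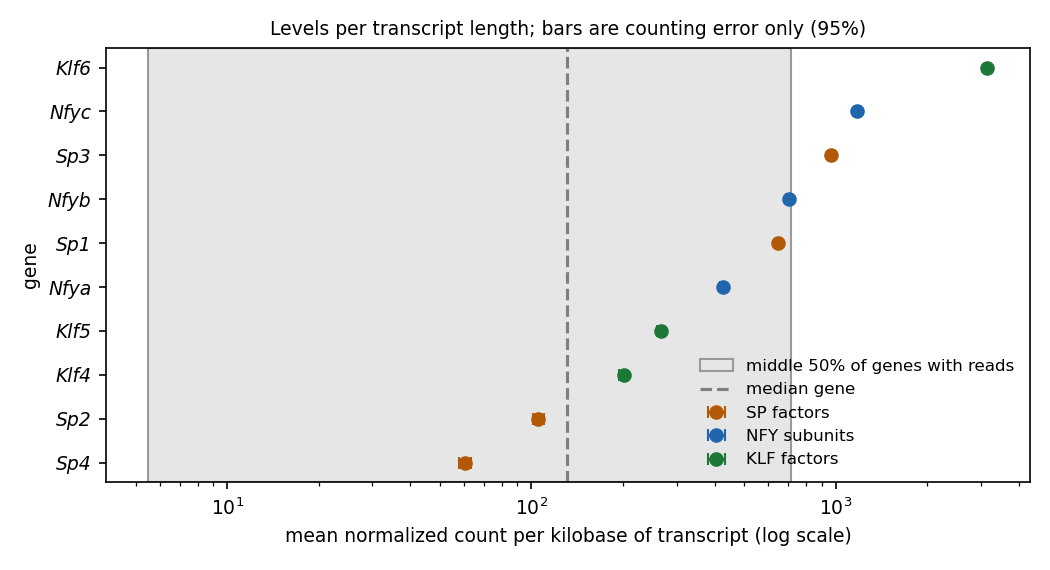
Mean normalized count per kilobase of transcript (horizontal log axis) for the 10 genes, in order of level, pooled over WT and *Anp32e*-/- libraries. Bars are 95% intervals of counting error only, the dashed line is the median gene with reads (131) and the shaded band runs from the lower to the upper quartile of genes (5.5 to 716). *Klf6*, *Nfyc* and *Sp3* lie above the band, and only *Sp2* and *Sp4* lie below this median of genes with reads.

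Placed in 1 order per kilobase, the 10 genes ran from *Klf6* through *Nfyc*, *Sp3*, *Nfyb*, *Sp1*, *Nfya*, *Klf5*, *Klf4* and *Sp2* to *Sp4*. Neighbours in this order did not overlap in their counting intervals: the closest were *Nfyb*, with 688 to 715 per kilobase, and *Sp1*, with 642 to 656. The spread between libraries is not in the table and is not part of these intervals, so it is unknown whether neighbours differ beyond it. *Klf6* in the first place, *Nfya* in the sixth place and *Klf5* and *Klf4* after it kept their places when the mean was not divided by length and when coding length was used.

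The number of listed transcripts differed between the genes, from 1 for *Sp1*, *Nfyb* and the KLF genes to 6 for *Nfyc*. Transcripts of 1 gene had nearly the same mean. The lowest of the 6 *Nfyc* transcripts had 97.8% of the mean of the highest, and those of *Nfya* lay between 1534 and 1555. The pair of *Sp3* transcripts differed most, at 4025 and 3914, a difference of 110.5 normalized counts. For *Sp2* all 4 transcripts lay between 319 and 321, and the 2 transcripts of *Sp4* had the same mean. The latter are paired with annotated lengths of 5694 and 2677 bases, and with the shorter one *Sp4* had 129 per kilobase and passed *Sp2*. Across the table, 74.3% of 6324 genes with several transcripts and a mean of at least 10 had their lowest transcript at 90% or more of their highest. A mean in this table is therefore not read here as the level of a single isoform or of a single start.

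**Figure D2:**
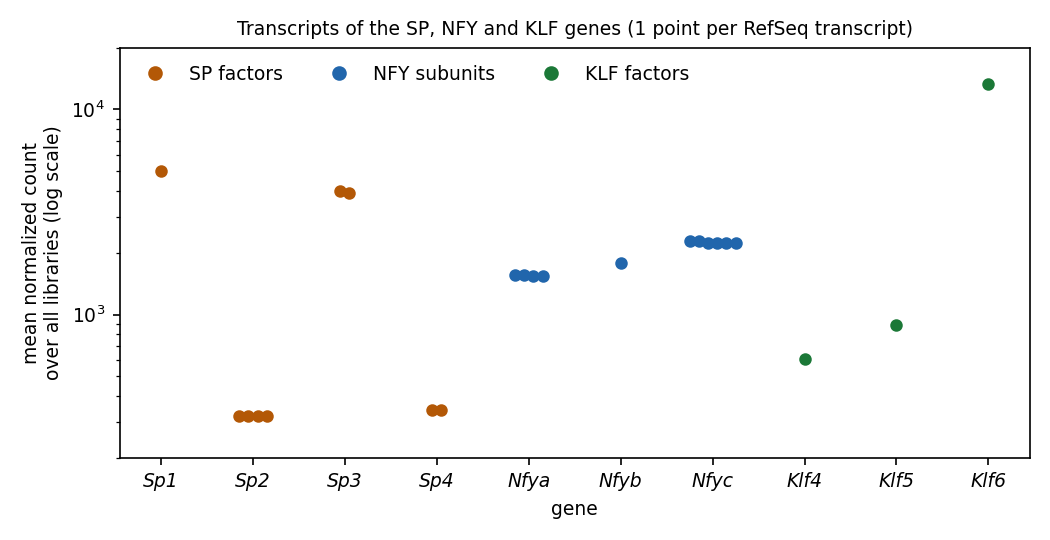
Mean normalized count over all libraries (vertical log axis) of each RefSeq transcript of the 10 genes, 1 point per transcript, coloured by family. Transcripts of the same gene lie almost on 1 level, and the genes span from 319 for a transcript of *Sp2* to 13277 for *Klf6*.

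The rest of the SP and KLF families was examined to place the members among their paralogs. Of 19 further genes, 13 had a mean of at least 10 normalized counts and 5 had a mean of at least 1000. Over all 25043 genes, 14246 had a mean of at least 10. Of 18655 genes with a promoter window, 5814 had a mean of at least 1000. *Klf10*, an early response gene of TGF-beta signalling, had a mean of 5071 and *Klf16* of 3271, followed by *Klf13* (2106), *Klf9* (1811) and *Klf3* (1475), the last a repressor. *Klf2*, known from endothelium, had 815, *Klf11* 655, *Klf8* 629 and *Klf7* 587 normalized counts, against 608 for *Klf4* and 892 for *Klf5*. The placement changed per kilobase, where *Klf2* had 441 and was above *Klf5* (266) and *Klf4* (201). On that scale *Klf11* (160.4), *Klf8* (132) and *Klf7* (76.6) were below *Klf4* and *Klf5*. *Klf12* (101), *Sp6* (45.0), *Klf15* (12.0) and the erythroid *Klf1* (11.5) were low. The 6 genes below 10 included the osteoblast factor *Sp7* (7.95), and *Sp9* (5.44), *Sp5* (1.76) and *Sp8* (0.633), which act in the embryo. *Klf17* and *Klf14* had 0.611 and 0.317. Within the SP family a mean of at least 50 was seen for *Sp1* to *Sp4* alone. Among the KLF genes with a length, *Klf16* was second to *Klf6* with 1223 per kilobase, and no length was matched for *Klf10*.

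**Figure D3:**
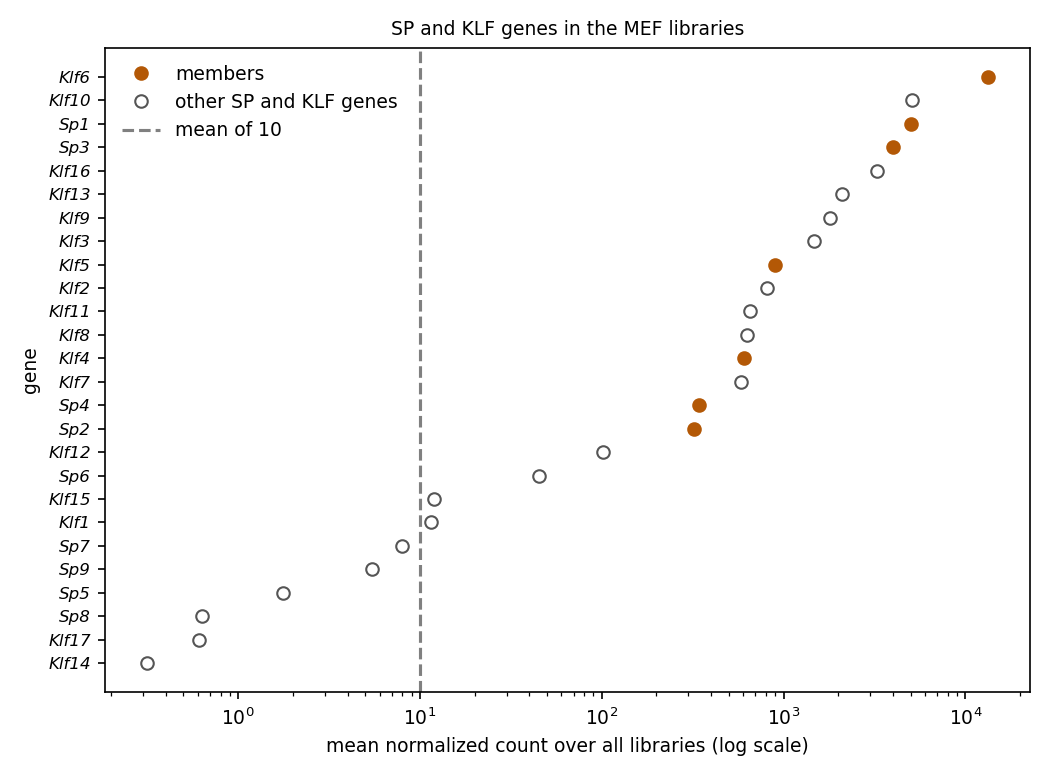
Mean normalized count over all libraries (horizontal log axis) of the SP and KLF genes, with the members as filled points and 19 other family genes as open points. The dashed line marks a mean of 10. The SP and KLF members lie at 321 or above, while 6 of the other genes lie below the line.

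Sites of the families in the promoters of their own genes were examined next. RefSeq windows of 300 bases, from 250 before to 50 after a transcript start, were held for 9 of the 10 genes and gave 16 windows, since *Sp2*, *Nfya* and *Nfyc* have 3 starts and *Sp3* has 2. *Klf5* had none. GC boxes were present in 11 of the 16 windows, against 35.7% of all 32851 windows, and each of the 9 genes had a GC box in at least 1 window. For *Nfyc* this was only window 1, for which no transcript sequence with the bases after the start was found. Over all 18655 genes of the table with a window, 48.6% had a GC box in at least 1. CCAAT boxes were present in 8 windows, against 37.4% of all windows, and CACCC or GGGTG in 9, against 57.5%. The member windows were rich in G and C, with a median of 63.7% against 52.7% over all windows, and the part of base composition in the number of GC boxes was not tested. A match is only a run of letters. The first 2 *Nfya* windows, with starts 66 bases apart, overlap, and the same GC box is counted in each.

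The genes differed in which letters they carried. The *Sp1* window, of which the 130 bases next to the start are printed above, holds 4 GC boxes, which start 210, 197, 81 and 62 bases before the transcript start, and 3 CCAAT boxes, at 230, 137 and 84 bases. The CCAAT box at 84 and the GC box at 81 share 2 letters, as the run of capitals in the printed sequence shows. The *Klf6* window has the reverse balance, with 4 CCAAT boxes at 230, 200, 131 and 78 bases before the start and 1 GC box at 63. With longer motifs (GGGGCGGGG for the GC box, and CCAAT after a pair of purines) the *Klf6* window held neither. *Klf4* has 4 GC boxes, at 217, 212, 189 and 101 bases, and no CCAAT box in its window. *Sp3* has a CCAAT box at 88 and GC boxes at 36 and 23 bases before its first start, and 5 GC boxes before its second. *Sp4*, the lowest of the genes per kilobase, has 5 GC boxes and 1 CCAAT box. With the longer motifs *Sp4* kept its CCAAT box and lost the GC boxes.

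The NFY genes also differed from each other. The *Nfyb* window has 3 GC boxes, at 117, 71 and 59 bases before the start, and no CCAAT box. The first *Nfya* window has 1 GC box, at 21 bases, and no CCAAT box. A CCAAT box lies 137 bases before *Nfya* start 3, which is 9240 bases inside the annotated gene. *Nfyc* has 1 GC box and no CCAAT box before its first start, but 5 and 3 CCAAT boxes in the windows of the other two. These starts lie 5838 to 15866 bases inside the annotated gene, and for the first 2 windows, which hold the GC box and the 5 CCAAT boxes, no transcript sequence with the bases after the start was found. *Sp2* has neither box at its starts 1 and 3, and 6 CCAAT boxes and 2 GC boxes at start 2. Starts 2 and 3 of *Sp2* lie 5271 and 14294 bases inside the annotated gene.

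**Figure D4:**
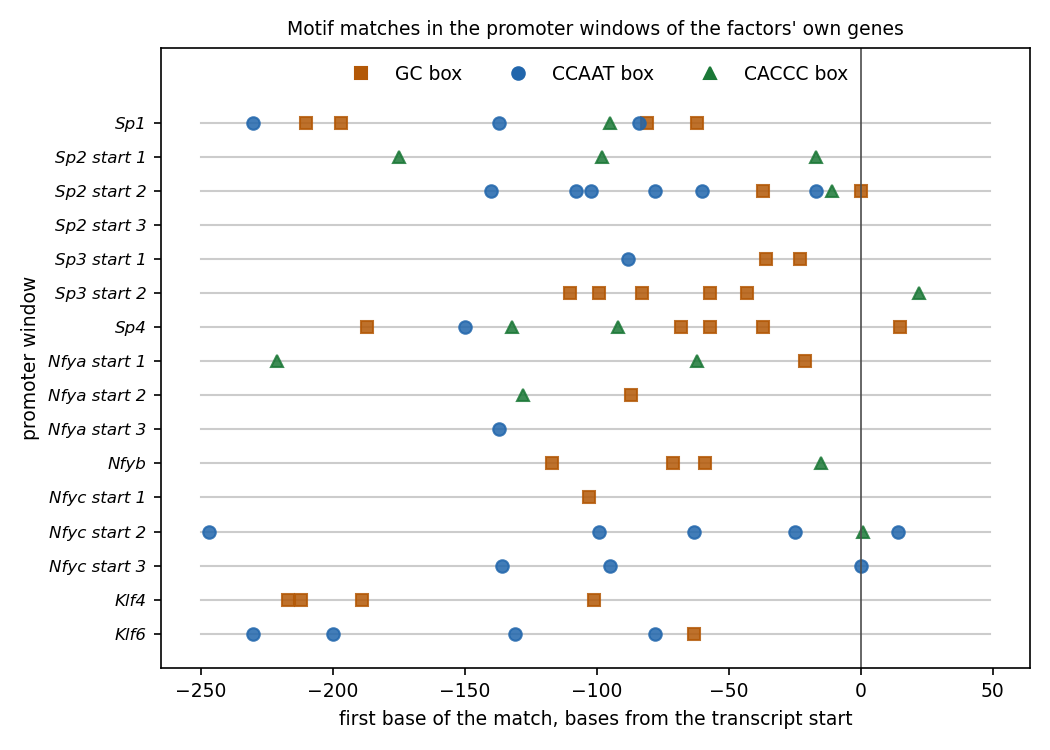
Positions of GC boxes (squares), CCAAT boxes (circles) and CACCC boxes (triangles) on either strand in the 16 promoter windows of 9 of the genes, in bases from the transcript start (vertical line). *Sp1*, *Sp4*, *Klf4* and the second *Sp3* window have 4 or 5 GC boxes each, and CCAAT boxes gather in *Klf6*, the second *Sp2* window and the second *Nfyc* window. Matches are to the short motifs, and with the longer motifs *Klf6* has neither box.

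To see how common these sites were among genes of different level, 18655 genes of the table with a promoter window were grouped by mean, and a gene was counted if any of its windows held the motif. The share of genes with a GC box was 10.4% of 4189 genes without reads, 31.3% of those below 10 normalized counts, 51.6% from 10 to 100, 66.7% from 100 to 1000 and 74.5% of 5814 genes at 1000 or more. All 9 factor genes with a window lie in the last 2 groups. The share with a CCAAT box stayed between 39.2% and 43.6% in all groups. It was not computed by group for CCAAT after a pair of purines. The share with a CACCC box was 45.0% in genes without reads and between 65.2% and 69.3% in the rest. The median G and C content also went from 44.8% to 62.0% along the same groups, and its part in the shares was not tested.

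**Figure D5:**
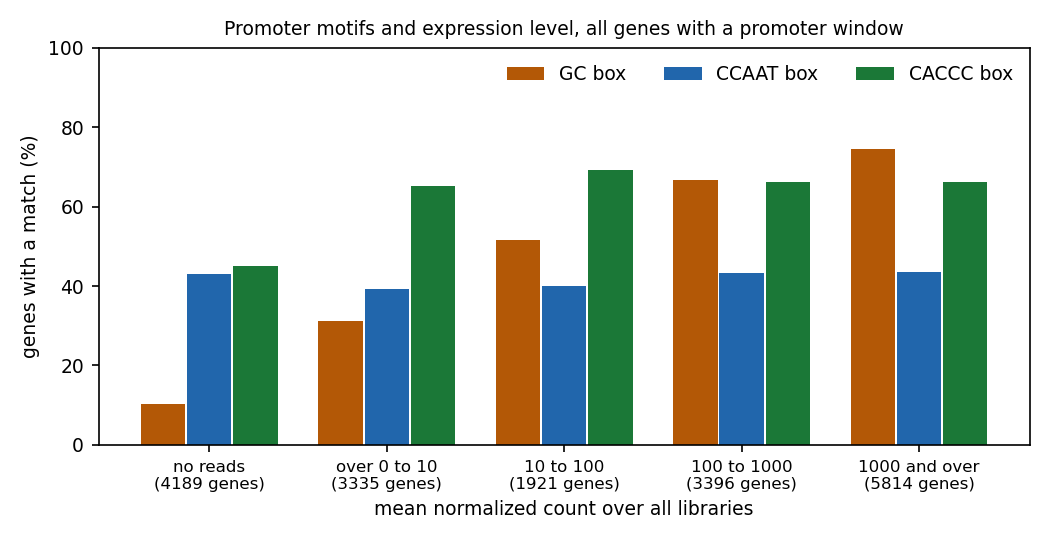
Share of genes with a GC box, a CCAAT box or a CACCC box in a promoter window (vertical axis, percent), in 5 groups of mean normalized count over all libraries. The share with a GC box goes from 10.4% to 74.5%, while the share with a CCAAT box lies between 39.2% and 43.6%.

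Among genes with reads, the 3650 with both a GC box and a CCAAT box had a median of 328 normalized counts per kilobase, and the 4982 with a GC box alone had 289. The 2438 genes with a CCAAT box alone had a median of 26.5 and the 3396 with neither 14.9. The gap was smaller without genes of few reads: among genes with a mean of at least 10, the same medians were 427, 391, 234 and 221. *Sp1*, *Sp3*, *Nfya*, *Nfyc* and *Klf6*, which carry both boxes over their windows, were above the median of 328 of their class among genes with reads, and *Sp2* and *Sp4*, of the same class, were below it. *Nfya* and *Nfyc* hold the boxes in different windows, and no transcript sequence was found for the *Nfyc* window with the GC box. With the longer motifs *Sp1*, *Sp3* and *Nfyc* kept both boxes. *Nfya* kept the GC box alone, *Sp2* and *Sp4* kept the CCAAT box alone and *Klf6* kept neither. *Nfyb*, which has a GC box alone, was above the median of 289 of its class, and *Klf4* was below it. *Nfya*, with 427 per kilobase, was level with the median of its class among genes with a mean of at least 10.

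Where the boxes lay was examined in 14126 windows of genes with a mean of at least 10. GC boxes were most frequent in the 50 bases before the start, with 30.5% of 19845 matches, and CCAAT boxes in the 50 bases further upstream, with 28.9% of 8332 matches. CACCC boxes were spread more evenly, with 16.3% to 18.3% of 15466 matches in each stretch of 50 bases before the start. Of the 24 CCAAT boxes in the windows of the factor genes, 8 (33.3%) lay in that same stretch, among them those of *Sp1* at 84, *Sp3* at 88 and *Klf6* at 78 bases, and 8 more lay in the next 50 bases upstream. With a pair of purines required before CCAAT, the *Sp3* box remained a match, while those of *Sp1* at 84 and *Klf6* at 78 did not. Of their 29 GC boxes, 6 (20.7%) lay in the 50 bases before the start and 11 (37.9%) in the 50 bases upstream of these. These matches come from 9 genes, and the first 2 *Nfya* windows overlap. Their GC boxes, at 21 and 87 bases before the 2 starts, are the same site and were counted in both stretches. The shares are therefore given as a description.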

How the data were processed

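Expression was measured by RNA-Seq in 3 WT and 3 *Anp32e*-/- MEF samples, which were grouped by the genotype in their labels. Per the paper's methods and the labels, the authors aligned the reads with STAR (mm10), assigned them to transcripts with featureCounts and compared the genotypes with DESeq2. The deposited signal column gives, for each transcript, normalized counts averaged across the 6 libraries. The other 5 columns hold the authors' comparison of the genotypes (log2 fold change, standard error, test statistic, raw and adjusted p) and were not used. A test was planned in case values per library were given. They were not, so none was run.

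Transcripts were assigned to genes by RefSeq identifier (GRCm38.p6), and 158 of 42361 had no match. Lengths are those of the paired GENCODE M21 transcripts, found for 89.9% of 19275 genes with reads. Percentiles are over genes with reads and a length. Size factors came from the 6 lowest distinct means, taken as transcripts with 1 read, and total reads per library are unknown. The strand setting of the counting is not given in the sources used here. Motifs were searched on both strands of the RefSeq promoter windows, overlapping matches were counted, and the first letter of a match gives its position. A run of 25 bases after the start was found in a GENCODE transcript of the gene for 14 of 16 windows, all printed ones included, and not for windows 1 and 2 of *Nfyc*. The steps were tested on simulated data.

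The members and gene lists were chosen with earlier results of these data known. Genes named by rule are the 10 members, other SP and KLF genes with a mean of at least 10, and *Anp32e*. The other genes named were picked after their values were seen. Alternatives were other transcripts, lengths, minimum levels, windows and longer motifs. Python 3.11.15, numpy 2.4.6, pandas 2.3.3, scipy 1.17.1 and matplotlib 3.10.9 were used.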

Additional observations from a re-analysis of the deposited data

How the results depend on the processing

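No paired analysis was possible because the table holds 1 mean per transcript over all libraries. For the same reason no replicate could be left out and no other normalization or count filter per library could be run, and coding lengths were taken from GENCODE since protein lengths were not used here. The coding length, the shortest transcript, the single-window genes and the longer motifs as promoter classes were added after seeing the data. With coding length the median level of the 10 genes was 1604 in place of 538 per kilobase, and 6 of the 10 kept their place in the order. Without division by length 5 kept it. *Sp3* over *Sp1* turned from 1.48 to 0.8 without division and to 0.798 with coding length. Genes with both boxes were 22.0 times as high in median as genes with neither, and 1.93 times among genes with a mean of at least 10 or 4.36 times with the longer motifs. Genes with a GC box alone over genes with a CCAAT box alone went from 10.9 to 1.67 at a mean of at least 10, to 7.11 with the bases before the start only and to 1.46 with the longer motifs. The longer GC box (GGGGCGGGG) was in 11.4% of windows and the CCAAT box after a pair of purines in 17.1%. Of the 16 windows of the factor genes, 7 held the longer GC box and 6 the longer CCAAT box. Of 34 alternative values, 19 stayed within 1.5 times the value reported without a turn of direction. Depth was not the limit for the 10 genes, since counting error was between 0.693% and 4.48% of each mean.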

Other observations

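Of all 25043 genes, 14246 had a mean of at least 10 normalized counts, and all 15 genes of a list of co-regulators and partners did. The median of the list was 1987 against 1673 for the 10 members. *Hcfc1*, which encodes a chromatin adaptor, had the highest mean at 8535. *Hdac1*, a histone deacetylase found with SP1, had 4008, and *Ep300* and *Crebbp*, the acetyltransferases, had 1756 and 2719. *Taf4*, a TFIID subunit contacted by SP1, had 903. Of the subunits of the RFX complex, which sits beside NFY on MHC class II promoters, *Rfx5* had 687, *Rfxank* 864 and *Rfxap* 973.

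All 13 genes of a list known for a CCAAT box or a GC box in their promoter had a mean of at least 1000. Of 18655 genes with a promoter window, 5814 did. The median of the list was 4408 per kilobase against 538 for the members, and the part of the boxes in these levels was not tested. The chaperone gene *Hspa8* had a mean of 167738, and the endoplasmic reticulum chaperones *Hsp90b1* and *Hspa5* had 33910 and 29861. The cell cycle genes *Cdk1* and *Top2a* had 19807 and 19849, and *Ccnb1* and *Ccnb2* had 5917 and 3441. The collagen genes *Col1a1* and *Col1a2*, which also mark fibroblasts, had 26142 and 23592. *Cdc25c* was the lowest by mean, with 1484. These values are means over WT and *Anp32e*-/- libraries and say nothing of a difference between them.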
